A study of Mus musculus with 2 samples.

Results

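The Mir130-301 family comprises 4 miRNA genes of the mouse, Mir130a, Mir130b, Mir301 (called Mir301a in other annotations) and Mir301b. They were taken by gene identifier from the 1973 miRNA genes listed in each deposited file, and all 4 were found. The series holds a single group of 2 small RNA libraries from limb tissue of mouse embryos of strain B6NCrl at embryonic day 11.5, numbered biological replicates 1 and 2. Replicate 1 was made from 109 pooled embryos and replicate 2 from 88, of both sexes, healthy and with no treatment or mutation named in the labels. Both libraries carry the same donor identifier, and a difference between them may be technical. No second tissue, age or genotype was analysed here, so the comparisons are between members of the family and between the libraries.

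A microRNA is a short regulatory RNA released from a folded precursor, and it pairs with messenger RNAs mainly through its seed, bases 2 to 8 from the 5′ end. Either arm of a hairpin can give a mature miRNA, named 5p or 3p. The 3p miRNAs of this family share their seed and can therefore pair with the same sites. The family is known for repressing PPARγ, a regulator of fat cell formation. In human endothelial cells miR-130a is also known to repress the homeobox genes GAX and HOXA5, which restrain vessel growth.

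The mature sequences below, from RefSeq on GRCm38.p6, show what the members share and where they part; capitals mark bases 2 to 8, and all are written 5′ to 3′. The 3p miRNAs of Mir130a, Mir130b and Mir301 come first. The fourth 3p miRNA, miR-301b-3p, had no entry in the reference used here, so its sequence is not shown.
miR-130a-3p: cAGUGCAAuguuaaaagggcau
miR-130b-3p: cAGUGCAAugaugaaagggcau
miR-301a-3p: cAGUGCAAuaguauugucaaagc
The 5p miRNAs of all 4 members follow.
miR-130a-5p: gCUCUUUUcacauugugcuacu
miR-130b-5p: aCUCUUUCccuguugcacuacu
miR-301a-5p: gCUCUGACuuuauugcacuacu
miR-301b-5p: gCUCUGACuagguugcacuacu

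The 3p miRNAs shown share the seed AGUGCAA, whose reverse complement in a target is UUGCACU. Counting positions from 1 at the 5′ end, miR-130a-3p and miR-130b-3p were identical at 20 of 22 bases and differed by U11A and A13G. miR-301a-3p matched miR-130a-3p at the first 9 bases and at 12 of 22 in all. The 5p miRNAs fell into other groups. miR-301a-5p and miR-301b-5p shared the seed CUCUGAC and 19 of 22 bases, whereas miR-130a-5p and miR-130b-5p had different seeds, with U8C at the last seed base, and matched at 15 of 22 bases.

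The members lie at 3 loci of the mm10 (GRCm38) assembly. Mir130a (ENSMUSG00000065484.1) is on chromosome 2 from 84741115 to 84741178 on the minus strand, and no annotated protein-coding gene of GENCODE M21 spans it. Its nearest protein-coding neighbours are Gm19426 on the same strand, 990 nt away, and Ypel4 on the other strand, 2459 nt away. Mir301b (ENSMUSG00000076288.1), on chromosome 16 from 17124400 to 17124496, and Mir130b (ENSMUSG00000065572.1), from 17124061 to 17124142, both lie on the minus strand with 257 nt between them. In each of the 3 transcripts of 2610318N02Rik that span them, both hairpins lie in intron 1, on the host's strand, with Mir301b nearer to the transcript start. Mir301 (ENSMUSG00000065589.1) is on chromosome 11 from 87113004 to 87113089 on the plus strand. It lies in intron 1 of both spanning transcripts of Ska2, a gene of the spindle and kinetochore complex that holds chromosomes to the spindle in mitosis.

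**Figure D1:**
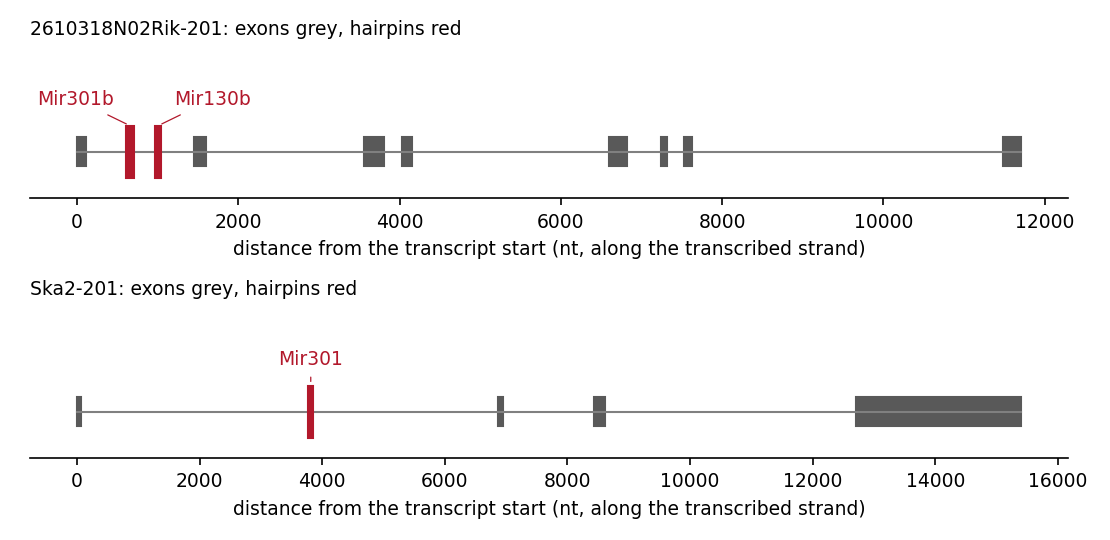
Positions of the intronic hairpins (red) in a transcript of 2610318N02Rik (top) and of Ska2 (bottom), with exons in grey and the distance from the transcript start in nt on the horizontal axis. Mir301b and Mir130b start 610 and 964 nt from the start of their transcript and share its intron 1, and Mir301 starts 3770 nt from that of Ska2.

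The hairpins were 64 nt long for Mir130a, 82 nt for Mir130b, 86 nt for Mir301 and 97 nt for Mir301b, against a median of 85 nt over the 295 detected genes. Their GC content was 45.3% for Mir130a, 48.8% for Mir301, 53.6% for Mir301b and 56.1% for Mir130b, and the detected genes had quartiles of 43.6 and 56.2%. The folding energy computed per nucleotide was weakest for Mir130a, at -0.345 kcal/mol, followed by Mir130b at -0.367, Mir301b at -0.403 and Mir301 at -0.430. The quartiles of the detected genes were -0.487 and -0.392 kcal/mol per nt, so both Mir130 hairpins folded less tightly than most. The longest stretch that a member shared with another annotated miRNA hairpin was 17 nt, between Mir130a and Mir6389. Mir301 and Mir301b shared 16 nt with each other, and Mir130b shared 16 nt with Mir6368. No member shared 20 nt with any other miRNA gene, so an exact read of a whole 22-nt member miRNA fits a single miRNA gene. How mismatched reads were treated is not given in the sources used here.

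The values are raw counts of reads per hairpin gene, and levels are given as CPM, a gene's count scaled to a common total of 1000000 sense-strand counts over all miRNA genes. Replicate 1 held 2953085 such counts and replicate 2 held 3459176. Multimapping reads, kept apart from all genes, took 24.7% of the reads in replicate 1 and 23.4% in replicate 2. A read covers a whole miRNA, so counts are not divided by hairpin length unless stated, and the 5p and 3p miRNAs of a hairpin cannot be told apart. Wilson 95% intervals cover counting error only, since PCR copies are not independent molecules. As to the labelled tissue, the limb and Hox-hosted marker genes Mir196b, Mir10a and Mir10b were all detected, with a summed level of 124029 CPM in replicate 1 and 121350 CPM in replicate 2. Of 3 skeletal muscle markers 2 were detected and Mir1a-1 was at 0, where any reads set aside as multimapping would not show. Mir122, the hepatocyte miRNA, reached 21.7 and 14.7 CPM, and of 5 listed brain markers none was detected and 4 were at 0, although their near-identical copies can lose reads to the multimapping line.

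All 4 members passed the detection level of 10 CPM in each library, as did 15.0% of all listed genes. Together they held 4.30% of the sense counts in replicate 1 and 4.17% in replicate 2. The members spanned a wide range, with Mir130a 204 ± 3.89 times as abundant as Mir301b (SD, n = 2).

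Mir130a, the member that lies alone, had 93886 counts or 31793 CPM in replicate 1 and 106162 counts or 30690.0 CPM in replicate 2. It ranked 7 of 1973 genes in both libraries. The mean was 31241 ± 779.6 CPM (SD, n = 2). Its Wilson 95% intervals were 31593 to 31993 CPM in replicate 1 and 30509 to 30872 CPM in replicate 2. Mir130a thus made up 73.9% of the family's counts in replicate 1 and 73.5% in replicate 2, or 73.7% ± 0.26 (SD, n = 2).

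Mir130b, the downstream hairpin of the chromosome 16 pair, had 28144 counts or 9530 CPM in replicate 1 and 32004 counts or 9252 CPM in replicate 2. Its mean was 9391 ± 197 CPM (SD, n = 2). It ranked 23 in both libraries and held 22.2% ± 0.01 of the family's counts. Its partner Mir301b had 467 counts or 158 CPM in replicate 1 and 514 counts or 149 CPM in replicate 2. Its mean was 153 ± 6.75 CPM (SD, n = 2). Mir301b ranked 172 and 173 and held 0.362% ± 0.0082 of the family's counts, although both hairpins lie in the same intron. Almost all counts of the pair, which summed to 9545 ± 204 CPM, therefore came from Mir130b.

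Mir301, in Ska2, had 4575 counts or 1549 CPM in replicate 1 and 5727 counts or 1656 CPM in replicate 2. Its mean was 1602 ± 75.2 CPM (SD, n = 2). It ranked 82 and 78 and held 3.78% ± 0.26 of the family's counts. Mir301 was the only member with a lower level in replicate 1 than in replicate 2. The order Mir130a, Mir130b, Mir301, Mir301b was the same in both libraries, and no member's values overlapped those of the next.

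**Figure D2:**
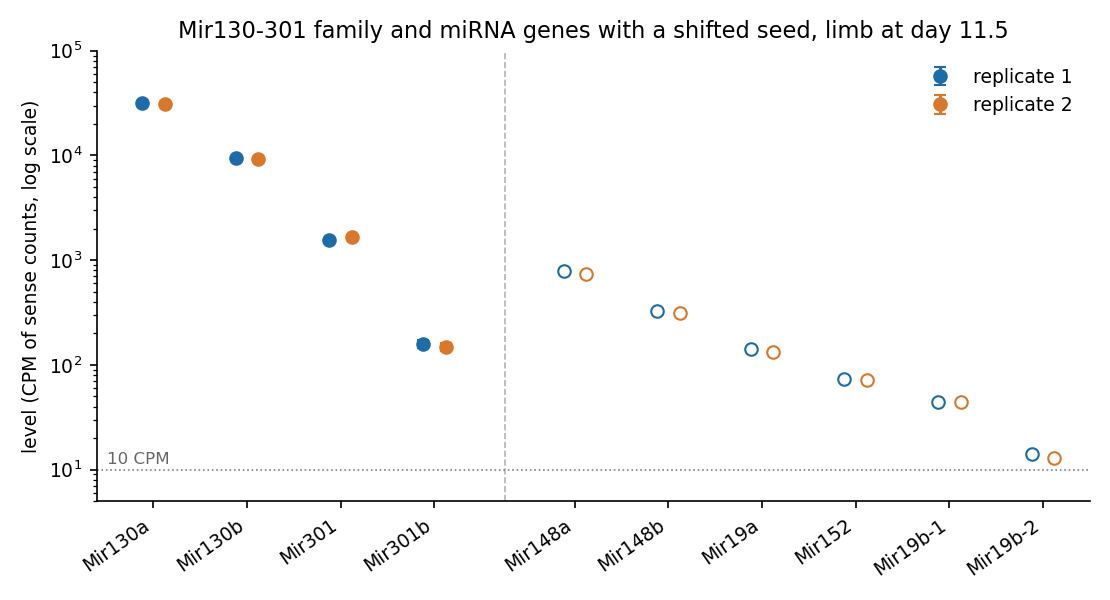
Levels (CPM of sense counts, log scale) of the 4 members (filled, with Wilson 95% intervals, mostly smaller than the points) and of 6 miRNA genes with a seed shifted by 1 base (open) in replicates 1 and 2. The members run from 31793 and 30690.0 CPM for Mir130a down to 158 and 149 CPM for Mir301b, and the dotted line marks 10 CPM.

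Among all miRNA genes, the members fell at ranks 7, 23, 79 and 172 by mean level. The genes nearest to Mir130a in level, compared over 2 libraries, were Mir214 and Mir10b above it, at 39072 and 35909.8 CPM on average, and Mir99b and Mir99a below it, at 28687 and 27469 CPM. None of these ranges, of 2 values each, overlapped that of Mir130a. The values of Mir99a, 26017 CPM in replicate 1 and 28920 CPM in replicate 2, nevertheless lay wide apart. Their spread exceeded the gap from the higher of them to the lower value of Mir130a, 30690.0 CPM in replicate 2. Around Mir130b stood Mir744 and Mir652 above and Mir23a and Mir298 below, within 10.3% of its mean, and none overlapped it either. The closest of them, Mir23a, differed by 3.28% of the Mir130b mean. The margin was narrow, with Mir23a at 9205 CPM in replicate 1 and Mir130b at 9252 CPM in replicate 2. Mir301 lay between Mir135b above and Mir106a and Mir28a below, all of which overlapped it, whereas Mir107, second above it, did not. Mir301b lay among Mir187, Mir6236, Mir485 and Mir700, and the ranges of all 4 overlapped its own. The ranks of Mir301 and Mir301b were therefore not resolved from those of these neighbours.

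**Figure D3:**
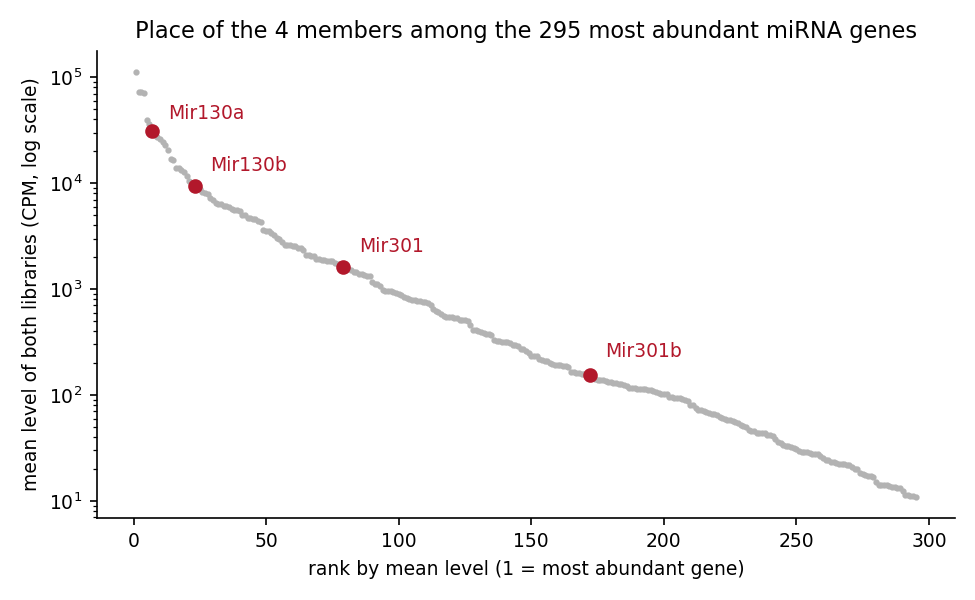
Mean level (CPM, log scale) of the 295 most abundant miRNA genes against their rank, with the 4 members in red. Mir130a and Mir130b stand at ranks 7 and 23, on the steep part of the curve, and Mir301 and Mir301b at ranks 79 and 172.

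Mir130a was set against the chromosome 16 pair as a whole. Its counts were 3.28 times those of the pair in replicate 1 and 3.26 times in replicate 2, a log2 ratio of 1.71 ± 0.0052 (SD, n = 2). The exact 95% counting intervals, 1.70 to 1.73 in replicate 1 and 1.69 to 1.72 in replicate 2, overlapped. Such overlap is not a test of a difference between the libraries. Per nucleotide of hairpin, the log2 ratio was 2.07 ± 0.0053. An exact sign-flip test cannot go below p = 0.5 with 2 libraries, so no test was run on these ratios.

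Mir301 was set against the same pair, and the libraries parted slightly. Its log2 ratio to the pair was -2.64 in replicate 1 and -2.51 in replicate 2. The intervals, -2.69 to -2.60 and -2.55 to -2.46, did not overlap. Per nucleotide of hairpin the ratio was -2.64 ± 0.10 on the log2 scale, close to the -2.58 ± 0.10 of the counts. The log2 ratio of Mir130a to Mir301 likewise was 4.36 in replicate 1 and 4.21 in replicate 2, with intervals of 4.32 to 4.40 and 4.17 to 4.25 that did not overlap. Per nucleotide of hairpin this ratio was 4.71 ± 0.10.

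Within the pair, Mir130b had 60.3 times the counts of Mir301b in replicate 1 and 62.3 times in replicate 2. The log2 ratio was 5.94 ± 0.03, and the counting intervals, 5.78 to 6.05 and 5.83 to 6.09, overlapped and were wider than the spread between libraries. Per nucleotide of hairpin, the log2 ratio was 6.18 ± 0.03. The gene counts of Mir130a and Mir130b, whose 3p miRNAs are highly similar, had a log2 ratio of 1.73 ± 0.0058, or 2.09 ± 0.0058 per nucleotide of hairpin. For Mir301 and Mir301b, whose 5p miRNAs share a seed, the log2 ratio was 3.29 in replicate 1 and 3.48 in replicate 2, with overlapping intervals of 3.15 to 3.43 and 3.35 to 3.61, and 3.56 ± 0.13 per nucleotide of hairpin. The widest ratio was that of Mir130a to Mir301b, at 7.67 ± 0.03 on the log2 scale, or 8.27 ± 0.03 per nucleotide of hairpin.

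**Figure D4:**
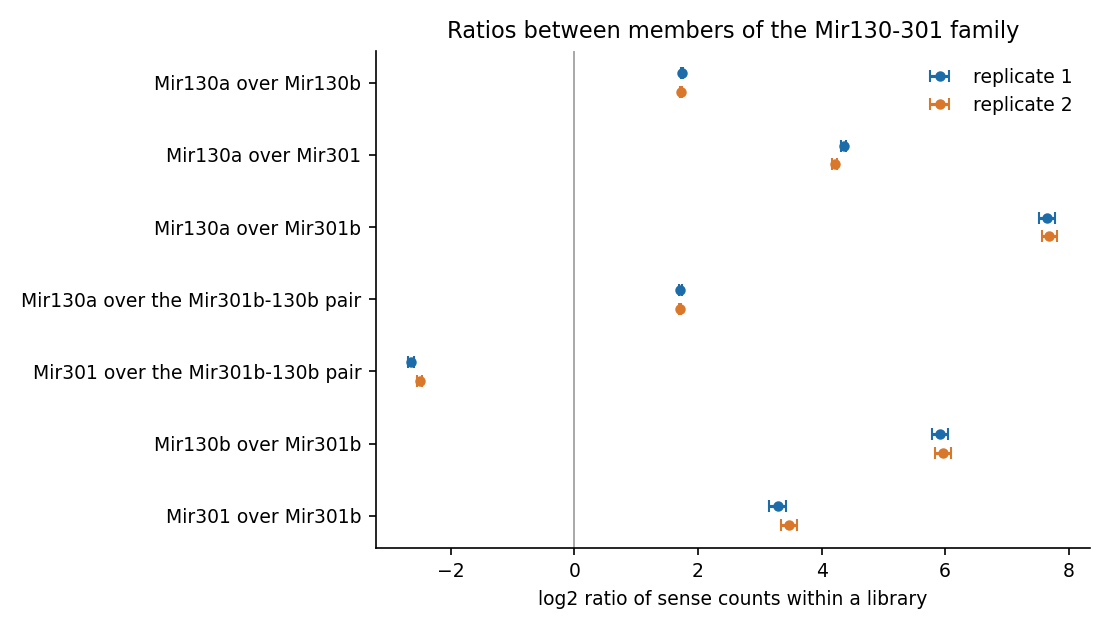
Log2 ratios of sense counts between members in replicates 1 and 2, with exact 95% counting intervals as bars. Mir130a over the Mir301b-130b pair is 1.71 in both libraries, and the points of Mir130a over Mir301 and of Mir301 over the pair are apart.

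Beyond the family, other miRNAs carry the same seed, and they are shown because they begin like miR-130a-3p while their genes had no counts.
miR-130c: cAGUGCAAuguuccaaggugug
miR-6389: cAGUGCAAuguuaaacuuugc
miR-6341: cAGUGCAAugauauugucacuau
Of 1738 mature sequences in the RefSeq table, 7 had the seed AGUGCAA, those of Mir130a, Mir130b and Mir301 included. As miR-301b-3p had no entry there, this count says nothing about its seed. miR-6389 was identical to miR-130a-3p over the first 15 bases and miR-130c over the first 12. Mir130c, Mir6389 and Mir6341 had 0 sense counts in both libraries, which allows a level of up to 1.02 CPM in replicate 1 and 0.867 CPM in replicate 2. This bound covers reads assigned to a gene, and any reads set aside as multimapping would not show. Mir721, which also has the seed, and Mir454 were not analysed here. Among the seed-sharing genes analysed here, the assigned counts therefore all lay in the members.

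Seeds shifted by 1 base were compared as well, in the miR-148 and miR-152 family and in miR-19, whose genes Mir19a and Mir19b-1 lie on chromosome 14 and Mir19b-2 on chromosome X.
miR-148a-3p: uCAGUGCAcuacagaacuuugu
miR-19a-3p: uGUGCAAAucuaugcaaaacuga
The 6 listed genes of this kind were all detected but stood well below the leading members. In replicates 1 and 2, Mir148a reached 789 and 744 CPM, Mir148b 327 and 315 CPM, and Mir152 73.1 and 71.7 CPM. Mir19a reached 141 and 132 CPM. Mir19b-1, at 44.0 and 44.2 CPM, and Mir19b-2, at 14.2 and 13.0 CPM, give the same 3p miRNA and share 25 nt of hairpin, and a read matching both loci may have been set aside as multimapping. The Mir130-301 family summed to 31.0 times the counts of these 6 genes in replicate 1 and 31.6 times in replicate 2. The least abundant member, Mir301b, was nevertheless below Mir148a and Mir148b in both libraries.

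The members differed little between the libraries. Their log2 ratios, replicate 1 over replicate 2 after TMM scaling (a trimmed mean that aligns library sizes), were 0.06 for Mir130a, 0.06 for Mir130b, -0.08 for Mir301 and 0.10 for Mir301b. Their median was 0.06, against 0.00 over all 422 tested genes. A two-sided exact binomial test with Benjamini-Hochberg adjustment over all tested genes, which sets 1 library against 1 and allows for counting error only, called 3 of the 4 members, as it did 21.3% of all tested genes. It compares no conditions, has no term for spread between libraries and treats PCR copies as independent, so its p-values and intervals are too small and too narrow where such spread exists. Smaller shifts pass it at higher counts, and the share of all tested genes is not matched to the members in level. Mir130a (95% interval 0.05 to 0.08, adjusted p = 1.39e-21) and Mir130b (0.03 to 0.08, adjusted p = 2.28e-05) were higher in replicate 1, as were 11.8% of tested genes. Mir301 (-0.14 to -0.03, adjusted p = 0.0206) was lower in replicate 1, as were 9.48% of tested genes. Mir301b did not pass, with an interval of -0.08 to 0.29 and an adjusted p of 0.559 in the exact test, and its smaller count gives the widest interval.

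Shifts of this size were common among the other well-counted genes. Of the 201 tested genes at 100 CPM or more, 120 had a larger absolute log2 ratio than Mir130a, 131 a larger one than Mir130b, 100 a larger one than Mir301 and 74 a larger one than Mir301b. The test was then widened by the spread of the median gene between the libraries, which called 11.4% of tested genes, 6.40% higher and 4.98% lower in replicate 1. Mir130a and Mir130b passed it, with Benjamini-Hochberg adjusted p of 2.69e-08 and 0.0339 in this widened test over all genes, and Mir301 did not, at 0.406. Widened by the mean spread, the test called 2.84% of genes, 1.66% higher and 1.18% lower, and 0 members, against 3 in the exact test, with adjusted p of 0.496 for Mir130a and 1 for Mir130b and Mir301. Of the 6 genes with a shifted seed, 0 passed the exact test of counts, which called 21.3% of all tested genes. Their log2 ratios were 0.01 to 0.14. These genes had lower counts than Mir130a, Mir130b and Mir301, so a shift as large as that of Mir130a need not pass in them.

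Markers of other cell types are set beside these values. All 7 listed epithelial markers had a lower CPM in replicate 1, as Mir301 did, with a summed level of 13177 CPM in replicate 1 and 15279 CPM in replicate 2, and none was at 0. The blood markers summed to 1027 CPM in replicate 1 and 1206 CPM in replicate 2, with 4 of 5 lower in replicate 1 and none at 0. This direction was not particular to these lists. It was also that of 2 of the 3 limb and Hox-hosted markers and 1 of the 3 skeletal muscle markers. Mir196b, Mir133b and Mir122 were higher in replicate 1. The endothelial miRNA gene Mir126a, the 1 of 2 endothelial markers analysed here, had 24254 and 24135 CPM. The part of these cell types in the differences of the members was not tested. In such bulk samples, fewer cells of a type and less RNA per cell cannot be told apart.

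**Figure D5:**
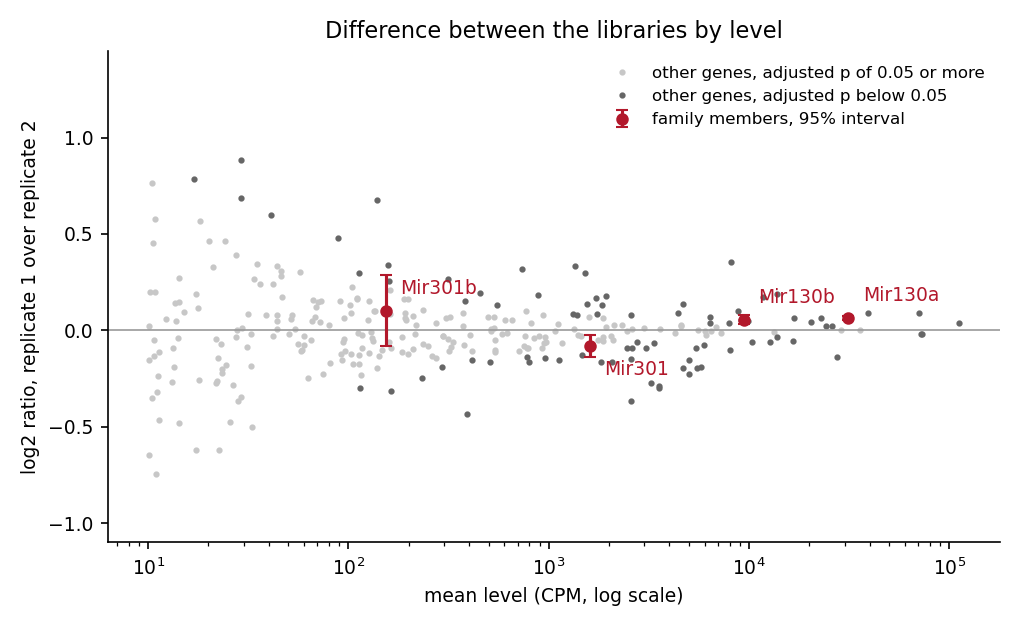
Log2 ratio of replicate 1 over replicate 2 against mean level (CPM, log scale) for tested genes at a mean of 10 CPM or more, with the members and their 95% intervals in red and genes that passed the exact test in dark grey; 3 genes beyond a log2 ratio of 1 in size are not drawn. The members lie between -0.08 and 0.10, and that of Mir301 is the only one below 0.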

How the data were processed

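Small RNA below 30 nt was sequenced in 2 limb libraries. The deposited files hold raw counts per miRNA gene for both strands together, the sense strand and the opposite strand; the strand reading rests on the values, since 97.8% and 97.7% of counts lay in the column used as sense. Per the notes deposited with the samples, the assembly was mm10 and the annotation M4; the aligner and counter were not given in the sources used here. Symbols, coordinates and hairpins came from GENCODE M21, which matched 1894 of 1973 identifiers, and mature sequences from RefSeq. The lines for unmapped, multimapping and no-feature reads, 23.6%, 24.7% and 7.44% of reads in replicate 1 and 23.5%, 23.4% and 6.47% in replicate 2, stayed out of library sizes and tests.

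CPM, member ratios and Wilson or exact (Clopper-Pearson) 95% intervals were computed within each library. Genes with 10 or more counts over both libraries were compared by the exact binomial test against TMM-scaled sizes (edgeR 4.0.16, R 4.3.3; factors from the tested genes), adjusted by Benjamini-Hochberg at 0.05, with a prior count of 0.5 in log2 ratios; a quasi-likelihood fit has no contrast in a series of 1 group. Widened forms divided each gene's squared deviation by an overdispersion of 2.64 (from the median gene) or 19.0 (the mean) and used a chi-square tail. RNAfold 2.7.2 gave folding energies, and Python 3.11.15 with scipy 1.17.1 the rest. The test was checked on simulated data that held counting error only, so the check does not bear on spread between libraries. Alternatives covered the count column, the denominator, scaling (total counts, DESeq2 1.42.0 size factors), filter, prior count, hairpin length and each library alone. Named genes were the members, the seed-related list, genes with the same seed, and the 2 genes next above and below each member in mean level. The members and lists were chosen with earlier results of these data known.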

Additional observations from a re-analysis of the deposited data

How the results depend on the processing

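Levels move with the denominator by construction, which leaves the order of the members as it was. With all reads of the file as the denominator, the family held 1.93%, Mir130a 14199.8, Mir130b 4269, Mir301 729 and Mir301b 69.7 counts on the CPM scale, and the seed-related sum was 615. Without the 10 most abundant other genes, these values were 8.61%, 63463, 19077, 3255, 312 and 2749. With both strands counted, the family held 4.14% and Mir130b had 9183 CPM. Divided by hairpin length, the log2 ratios of Mir130a were 2.09 to Mir130b, 4.71 to Mir301, 8.27 to Mir301b and 2.07 to the pair. That of Mir130b to Mir301b was 6.18 and that of Mir301 to Mir301b 3.56. The hairpin lengths differ too little to change the sign of any of these ratios. Each library alone lies within 1 SD of a mean of 2 by construction. The filters and the widened tests leave the log2 ratios between libraries as they are by construction, and the prior count barely moves them. Under the other scalings and with both strands counted, these differences kept their sign. With the spread widened by the median gene, the log2 ratio of Mir301, -0.083, no longer passed, and the test called 48 genes, 27 higher and 21 lower in replicate 1, against 90 genes, 50 and 40, in the exact test. Widened by the mean, neither Mir130a at 0.064, Mir130b at 0.056 nor Mir301 at -0.083 passed, and 12 genes did, 7 higher and 5 lower. Over the 8 alternatives, adjusted p ran from 1.00e-21 to 0.496 for Mir130a, from 1.65e-05 to 1 for Mir130b, from 0.00493 to 1 for Mir301 and from 0.465 to 1 for Mir301b. The comparison between libraries cannot be made with a library left out. No paired analysis was possible because the series holds 1 group. With 467 and 514 counts, Mir301b had the least precise values of the family.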
